A study of Mus musculus with 11 samples.

Results

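The genes described here are 33 genes of the lysosome, the acidic organelle in which cells take apart protein, glycan and lipid. They comprise 7 cathepsins, 2 further proteases, 9 glycosidases, 7 genes of lipid breakdown, 1 sulfatase, 6 genes of the lysosomal membrane and 1 transcription factor. They were taken from a list drawn up by function. The rule for this list used no measured value, but the list was drawn up with earlier results of these data known. The classes of single cells described below were set by measured levels of Sparc, Col4a1, Col4a2, Amn and Cubn. All 33 were among the 48952 genes of the bulk count table and among the 32285 genes of the single-cell matrices, and all 33 were among the 14185 genes with enough reads for a test in bulk.

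The samples were mouse naive extra-embryonic endoderm (nEnd), a line derived from embryonic stem cells that models the primitive endoderm of the blastocyst and grows on mouse embryonic fibroblast feeders in RACL medium (LIF, CHIR99021 and Activin A). For bulk RNA-seq, untreated OCT4-mCherry nEnd, in which OCT4 protein carries a fluorescent tag, was stained for the receptor PDGFRA, and live cells were sorted as Pdgfra+ (receptor alone), DP (double positive, with receptor and reporter) or Oct4+ (reporter alone), with 3 libraries of each. For droplet single-cell RNA-seq, PDGFRA-positive Oct4-LOF nEnd of the line EPUc, which loses Oct4 (Pou5f1) on exposure to 4-hydroxytamoxifen (4OHT), was grown without 4OHT (-4OHT) or with it (+4OHT) and then in normal RACL, with 1 library of each. Each design therefore used cells of 1 reporter or deletion line.

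Lysosomal hydrolases are made in the endoplasmic reticulum, tagged with mannose 6-phosphate in the Golgi and carried to the lysosome, where a proton pump keeps the pH low. TFEB and its relatives bind the E-box CACGTG, often within the longer palindrome TCACGTGA, upstream of many lysosomal genes. The extra-embryonic endoderm of the mouse is an absorptive epithelium that takes up maternal protein through megalin (Lrp2), cubilin (Cubn) and amnionless (Amn) and digests it in lysosomes.

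The bulk libraries held 8019631 to 11642571 reads. The sort was visible in its own markers. Pou5f1 was at 26.4, 8.37 and 17.6 in Pdgfra+, 132, 245 and 310.3 in DP, and 1137, 944 and 861 in Oct4+, in CPM (read counts scaled by library size), and Pdgfra was at 684, 535 and 967 in Pdgfra+, 630.4, 420.1 and 718 in DP, and 4.96, 12.1 and 5.21 in Oct4+. The Oct4+ libraries thus held the epiblast-like cells, with little Pdgfra. A summed level of 7 fibroblast genes reached 150.4, 21.0 and 8.31 CPM in Oct4+ replicates 1 to 3 against 1.34 to 13.0 CPM in the other 6 libraries, and 6 macrophage genes summed to 0.111 to 6.78 CPM.

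The motif that TFEB binds was looked for in the promoters. RefSeq promoters (GRCm38.p6, 250 bases before to 50 after the start site) matched 29 of the 33 genes, and 11 of these 29 (37.9%) held CACGTG, against 8.09% of all 27025 genes with a promoter and 11.8% of the 10653 of them tested in bulk. The 8-letter palindrome TCACGTGA, which contains the shorter motif, stood in 4 of the 29 (13.8%), against 1.12% and 2.11%. Both motifs read the same on either strand. A match is a description of the letters and no measure of binding. The stretches below are from the genes with the 8-letter motif (Ctsa, Ctsd, Gla, Mcoln1), from Lamp1, which held 4 copies of CACGTG, and from the genes with the motif that were among the 6 furthest below Pdgfra+ in Oct4+ (Ctsl, Lgmn, Naglu). Each runs 5′ to 3′ on the gene's strand, with the motif in capitals. For Ctsa the capitals at the end open a further copy, and the Gla stretch lies in an exon of the neighbouring gene Hnrnph2. Those of Ctsa, Ctsd, Ctsl, Mcoln1 and Naglu overlap an exon of the gene itself as GENCODE annotates it, that of Lgmn lies in the gene but in no exon, and that of Lamp1 lies in no gene.
Lamp1, chr8:13159061-13159160, plus strand: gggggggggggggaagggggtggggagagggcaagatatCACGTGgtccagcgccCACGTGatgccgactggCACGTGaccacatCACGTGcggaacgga
Ctsd, chr7:142387908-142387937, minus strand: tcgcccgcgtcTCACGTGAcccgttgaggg
Ctsa, chr2:164833749-164833778, plus strand: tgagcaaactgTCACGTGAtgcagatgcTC
Gla, chrX:134601215-134601244, minus strand: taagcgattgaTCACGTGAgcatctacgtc
Mcoln1, chr8:3500462-3500491, plus strand: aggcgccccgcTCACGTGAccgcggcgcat
Ctsl, chr13:64370739-64370768, minus strand: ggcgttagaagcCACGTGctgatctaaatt
Lgmn, chr12:102439124-102439153, minus strand: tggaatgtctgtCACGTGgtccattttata
Naglu, chr11:101070009-101070038, plus strand: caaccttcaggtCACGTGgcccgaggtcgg
The Lamp1 copies began 61, 45, 28 and 15 bases before the start site. In the bulk comparison of Oct4+ with Pdgfra+ the 11 genes with CACGTG had a median log2 fold change of -2.79 and the 18 without it one of -1.33. For DP against Pdgfra+ the medians were 0.30 and 0.33. The remaining 4 genes had no promoter in the table used.

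Together the 33 genes took up 1.26% ± 0.173 of reads in Pdgfra+, 1.66% ± 0.157 in DP and 0.354% ± 0.0284 in Oct4+ (mean ± SD, n = 3 each). Their summed level was 15806, 12900.2 and 12109 CPM in Pdgfra+, 18097, 15490 and 18733 CPM in DP, and 3001, 2999 and 3431 CPM in Oct4+. The Oct4+ libraries lay far below all others, and the DP and Pdgfra+ ranges overlapped. In bulk, fewer cells of a type and less RNA per cell cannot be told apart. Without Ctsl, the member with most reads in every Pdgfra+ and DP library, the sums were 10608 ± 1417, 12822 ± 1264 and 2803 ± 237 CPM. Of the 33, 24 had their highest mean in DP, 8 in Pdgfra+ and 1, Manba, in Oct4+. How all genes divided in this way was not counted.

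**Figure D1:**
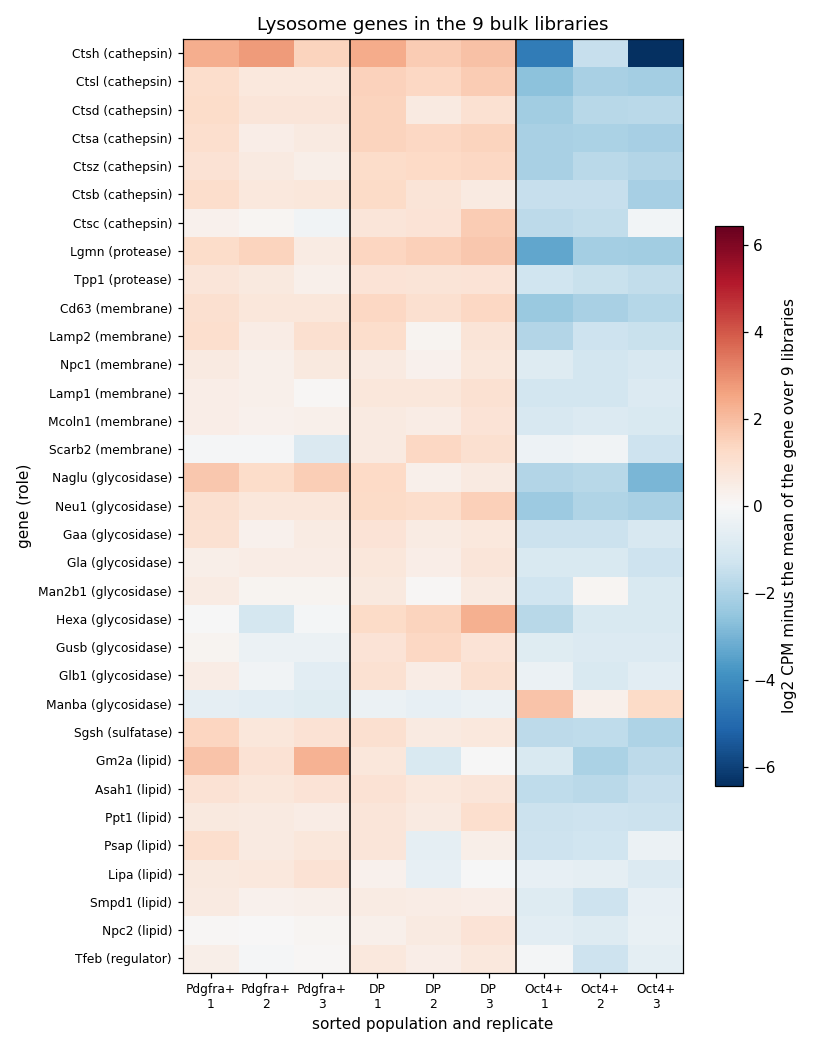
Log2 CPM of the 33 lysosome genes (rows) in the 9 bulk libraries (columns, grouped as Pdgfra+, DP and Oct4+). Each gene's mean over the 9 libraries was subtracted, and the colour scale is centred on that mean. The 3 Oct4+ columns lie below the gene's mean for nearly every gene, and above it for Manba.

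Compared per kilobase of exon, the most abundant transcripts in Pdgfra+ were Lamp1 (490.2 CPM per kb), which coats the inner face of the lysosomal membrane with sugar, the cysteine protease Ctsl (462) and the aspartic protease Ctsd (461). In DP they were Ctsl (712 CPM per kb), Lamp1 (705) and the carboxypeptidase Ctsz (659.6). In Oct4+ Lamp1 led at 190.5 CPM per kb, followed by Psap (122), which encodes the saposin precursor, and Ctsz (72.9). Tfeb itself was low everywhere, at 6.48, 8.96 and 3.87 CPM per kb in Pdgfra+, DP and Oct4+.

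The comparison of Oct4+ with Pdgfra+ asked how endoderm differed from the epiblast-like cells that arise from it. By edgeR's quasi-likelihood test (adjusted p below 0.05 over all 14185 genes), 29 of the 33 lysosome genes were lower in Oct4+, against 31.5% of all genes, and 1 was higher, against 31.8%. With an added threshold of 1.5 on the log2 scale, 20 were lower and 1 higher, where 32.0% of all genes passed in either direction. The median log2 fold change was -1.88 for the 33 and 0.01 for all genes tested. By role, all 7 cathepsins, both other proteases, all 7 lipid genes and the sulfatase were lower, as were 5 of 6 membrane genes and 6 of 9 glycosidases. Hexa, Glb1 and Scarb2 did not pass. Without Oct4+ replicate 1, the library with most fibroblast RNA, 27 genes were lower.

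Of the cathepsins, Ctsh (chr9:90054152-90076089, GRCm38), an aminopeptidase, stood at 588, 770.4 and 310.1 in Pdgfra+, 605, 354 and 432 in DP, and 5.04, 40.6 and 1.33 in Oct4+. Its Oct4+ values were spread widely, with replicate 2 highest, yet all 3 lay below every Pdgfra+ and DP library (log2 fold change -5.15, SE 0.96, adjusted p = 0.00101). Ctsl (chr13:64359337-64370890) measured 3623, 2696 and 2672 in Pdgfra+, 4566, 4127 and 5159.5 in DP, and 266, 391 and 364 in Oct4+ CPM. All Oct4+ values of Ctsl were far under the other 6 libraries (log2 fold change -3.14, SE 0.20, adjusted p = 2.37e-06). Ctsd (chr7:142375911-142388038) was at 1301, 971 and 977 in Pdgfra+, 1545, 858 and 1108 in DP, and 122, 163 and 170.5 in Oct4+ CPM, and Ctsb, another cysteine protease (chr14:63122462-63145923), at 739, 537 and 558 in Pdgfra+, 787, 606 and 501 in DP, and 121, 121 and 75.9 in Oct4+ CPM. For both, Pdgfra+ and DP overlapped and Oct4+ was low, with log2 fold changes of -2.83 (adjusted p = 9.56e-06) and -2.53 (adjusted p = 1.71e-05). Legumain (Lgmn, chr12:102394084-102439813), which cuts after asparagine and matures cathepsins, was at 863, 1019 and 538 in Pdgfra+, 978, 1112 and 1273 in DP, and 37.1, 81.8 and 79.9 in Oct4+ CPM. It was the other protease far below in Oct4+ (log2 fold change -3.61, SE 0.34, adjusted p = 1.57e-05), and the tripeptidyl peptidase Tpp1 was at -2.03 (adjusted p = 3.89e-06) on the log2 scale.

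Of the glycosidases, Naglu (chr11:101070012-101077672), which removes N-acetylglucosamine from heparan sulfate, was at 75.7, 52.0 and 69.3 in Pdgfra+, 55.1, 28.7 and 34.1 in DP, and 6.12, 6.61 and 2.99 in Oct4+ CPM, with Oct4+ below all other libraries (log2 fold change -3.63, SE 0.34, adjusted p = 1.69e-05). The sialidase Neu1 (chr17:34931253-34935953) was at 226, 180.2 and 183 in Pdgfra+, 260.2, 246 and 319 in DP, and 21.9, 28.8 and 25.8 in Oct4+ CPM. Oct4+ was again low and narrow (log2 fold change -2.95, SE 0.17, adjusted p = 1.51e-06). Neu1 needs the protective protein encoded by Ctsa, itself at a log2 fold change of -2.79 (adjusted p = 2.07e-06). The sulfamidase Sgsh, which acts beside Naglu on heparan sulfate, was at -2.81 (adjusted p = 1.37e-05), the acid alpha-glucosidase Gaa at -1.88 (adjusted p = 2.82e-05) and the alpha-galactosidase Gla at -1.54 (adjusted p = 4.52e-05).

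The beta-mannosidase Manba (chr3:135485611-135571404) ran the other way. It was at 92.4, 86.5 and 79.5 in Pdgfra+, 104, 93.5 and 105 in DP, and 482, 171 and 318 in Oct4+ CPM. Every Oct4+ library lay above the 6 endoderm libraries, with a wide spread among the Oct4+ libraries, highest in replicate 1 (log2 fold change 1.91, SE 0.30, adjusted p = 0.000357). The alpha-mannosidase Man2b1 was lower in Oct4+ at -0.88 (adjusted p = 0.0389), though its Oct4+ replicate 2, at 121 CPM, was close to the lowest Pdgfra+ library, at 123 CPM.

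Of the lipid genes, Gm2a (chr11:55098115-55113029), the activator that presents GM2 ganglioside to beta-hexosaminidase, was at 188, 102 and 256 in Pdgfra+, 90.0, 26.8 and 51.6 in DP, and 27.0, 12.8 and 16.7 in Oct4+ CPM. Every Pdgfra+ value was above all others, and the lowest DP and the highest Oct4+ value were nearly the same (log2 fold change -3.26, SE 0.49, adjusted p = 0.000269). Psap was at 1345, 959 and 1066 in Pdgfra+, 1099, 424 and 843 in DP, and 257, 259.9 and 489 in Oct4+ CPM. Its Oct4+ replicate 3 exceeded DP replicate 2, while all Pdgfra+ values were higher than both (log2 fold change -1.74, SE 0.36, adjusted p = 0.00174). The acid ceramidase Asah1 was at a log2 fold change of -2.44 (adjusted p = 1.32e-06), the thioesterase Ppt1 at -1.92 (adjusted p = 5.17e-06), the sphingomyelinase Smpd1 at -1.26 (adjusted p = 0.000434), the acid lipase Lipa at -1.40 (adjusted p = 0.000322) and the cholesterol carrier Npc2 at -0.73 (adjusted p = 0.00273).

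Of the membrane genes, Lamp1 (chr8:13159161-13175338) was at 1436, 1356 and 1142 in Pdgfra+, 1752, 1811 and 2097 in DP, and 466, 474 and 589 in Oct4+ CPM. The 3 groups did not overlap, with DP highest (log2 fold change -1.36, SE 0.15, adjusted p = 3.94e-05 for Oct4+ against Pdgfra+). The tetraspanin Cd63 was at a log2 fold change of -2.93 (adjusted p = 2.10e-06), Lamp2 at -2.40 (adjusted p = 4.14e-05), the cholesterol transporter Npc1 at -1.52 (adjusted p = 2.71e-05) and the calcium channel Mcoln1 at -1.31 (adjusted p = 3.77e-05). Tfeb (chr17:47737030-47792419) was at 43.6, 31.6 and 35.1 in Pdgfra+, 53.9, 45.0 and 53.6 in DP, and 30.6, 13.5 and 21.7 in Oct4+ CPM. Oct4+ was lower (log2 fold change -0.74, SE 0.27, adjusted p = 0.0328), with Oct4+ replicate 1 near the lowest Pdgfra+ library. The calls of Ctsc, Man2b1, Tfeb and Gusb in this comparison were lost when 1 library was left out. Without Pdgfra+ replicate 1 all 4 were lost (adjusted p 0.109, 0.124, 0.127 and 0.0664), which left 25 genes lower.

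DP and Oct4+ were compared in the same way. In DP 32 of the 33 were higher than in Oct4+, where 28.3% of all genes were, and 1, Manba, was lower, where 27.9% were. Past the fold threshold stood 25 higher and 1 lower, and 27.7% of all genes in either direction. The median was 2.10 for the 33 and -0.04 for all genes on the log2 scale. The largest differences were those of Ctsh (log2 fold change 4.89, SE 0.95, adjusted p = 0.00161), Lgmn (log2 fold change 4.08, SE 0.35, adjusted p = 1.25e-05) and Ctsl (log2 fold change 3.76, SE 0.21, adjusted p = 2.14e-06).

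Next came Ctsa (log2 fold change 3.48, SE 0.18, adjusted p = 1.80e-06), Neu1 (log2 fold change 3.43, SE 0.17, adjusted p = 1.80e-06) and Cd63 (log2 fold change 3.34, SE 0.19, adjusted p = 2.19e-06). Cd63 was at 649.5, 521 and 528 in Pdgfra+, 797, 649 and 802 in DP, and 59.8, 73.4 and 89.1 in Oct4+ CPM, so that its Oct4+ values were under all others while Pdgfra+ replicate 1 and DP replicate 2 nearly coincided. Manba was lower in DP (log2 fold change -1.68, SE 0.30, adjusted p = 0.000947). Lipa, the smallest of the 32, was at 0.60 (adjusted p = 0.0371). The 3 genes that had not passed between Oct4+ and Pdgfra+ passed here, with Hexa at 2.94 (adjusted p = 0.000139), Scarb2 at 1.56 (adjusted p = 0.00230) and Glb1 with an adjusted p of 0.00140. Leaving out DP replicate 1 took the calls of Gm2a (adjusted p 0.0682), Lipa (0.124) and Man2b1 (0.0591) and left 29 genes higher.

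The comparison of DP with Pdgfra+ addressed whether endoderm that kept OCT4 differed from endoderm without it. In DP 5 of the 33 genes were higher, against 4.62% of all genes, and none was lower, against 2.26%. Hexa alone passed the fold threshold as well, which 3.89% of all genes did in either direction. The median log2 fold change was 0.26 for the 33 and 0.02 for all genes. Positive values were found for 25 of the 33 and for 7363 of all 14185 genes. At an unadjusted p below 0.05 edgeR gave 12 lysosome genes higher and 3 lower, and the share of all genes at that p was not counted. DESeq2 called 2 lower and more genes higher than edgeR did, with the counts given at the end.

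Hexa (chr9:59539540-59565109), the alpha subunit of beta-hexosaminidase, was at 83.2, 38.5 and 76.2 in Pdgfra+, 196, 228 and 407 in DP, and 24.2, 42.0 and 42.7 in Oct4+ CPM. All DP values were above all Pdgfra+ values (log2 fold change 2.07, SE 0.36, adjusted p = 0.0173), a 4.20-fold difference, and Oct4+ and Pdgfra+ overlapped. Gusb (chr5:129989011-130003049), the beta-glucuronidase, was at 42.1, 28.3 and 27.9 in Pdgfra+, 68.4, 91.3 and 67.7 in DP, and 21.0, 20.1 and 20.2 in Oct4+ CPM, again with every DP value on top and Oct4+ at the bottom (log2 fold change 1.21, SE 0.20, adjusted p = 0.0148). Scarb2 (chr5:92441314-92506833), the receptor that carries glucocerebrosidase to lysosomes, was at 70.8, 69.1 and 38.2 in Pdgfra+, 112, 183 and 153 in DP, and 58.6, 62.9 and 29.7 in Oct4+ CPM. Its DP values were above all others, and those of Pdgfra+ and Oct4+ overlapped (log2 fold change 1.33, SE 0.32, adjusted p = 0.0402).

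Both cathepsins that passed are carboxypeptidases. Ctsa (chr2:164832873-164841032) was at 822, 529 and 578 in Pdgfra+, 1055, 1002 and 1060.2 in DP, and 91.8, 96.1 and 90.8 in Oct4+ CPM. DP libraries were close to each other and higher than Pdgfra+ throughout (log2 fold change 0.69, SE 0.16, adjusted p = 0.0370). Ctsz (chr2:174427493-174439039) was at 745, 584 and 506 in Pdgfra+, 898, 959 and 995 in DP, and 93.1, 118 and 105 in Oct4+ CPM, with the same order of groups and no overlap (log2 fold change 0.64, SE 0.16, adjusted p = 0.0436). The differences in Ctsa and Ctsz came to 1.62-fold and 1.55-fold.

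Each of the 5 calls depended on single libraries. Without Pdgfra+ replicate 3 none of the 33 passed, and without Pdgfra+ replicate 2 or DP replicate 3 there was 1. Hexa was at adjusted p = 0.0690 without Pdgfra+ replicate 3 and 0.0554 without DP replicate 3.

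DP and Pdgfra+ libraries with the same number deviated together from their group means. In a fit with the replicate number as a block on these 6 libraries, 13 lysosome genes were higher in DP, where 10.4% of 12541 genes were, and 3 were lower, where 9.86% were. The genes gained as higher were Ctsc at a log2 fold change of 1.05 (adjusted p = 0.0369), Glb1 at 0.97 (adjusted p = 0.0333), Ctsl at 0.65 (adjusted p = 0.0327), Lamp1 at 0.54 (adjusted p = 0.0443), Npc2 at 0.54 (adjusted p = 0.0288), Neu1 at 0.50 (adjusted p = 0.0437), Tfeb at 0.49 (adjusted p = 0.0350) and Cd63 at 0.42 (adjusted p = 0.0398). Those lower were Gm2a at -1.74 (adjusted p = 0.0184), Lipa at -0.81 (adjusted p = 0.0309) and Naglu at -0.76 (adjusted p = 0.0222). Without the block their log2 fold changes were 1.07, 0.90, 0.62, 0.52, 0.54, 0.49, 0.47 and 0.40 for the former and -1.70, -0.80 and -0.74 for the latter, with adjusted p from 0.0523 to 0.296. In every same-numbered pair Gm2a was lower in DP than in Pdgfra+, by the values given above. The dipeptidyl peptidase Ctsc was at 121, 111 and 84.8 in Pdgfra+, 173, 183 and 309 in DP, and 31.5, 33.6 and 90.6 in Oct4+ CPM, with DP replicate 3 well above the other DP libraries. No further lysosome gene passed in either fit, among them Ctsb at 0.05 (adjusted p = 0.917), Ctsd at 0.11 (adjusted p = 0.790), Ctsh at -0.26 (adjusted p = 0.863), Lgmn at 0.47 (adjusted p = 0.353) and Psap at -0.51 (adjusted p = 0.383) without the block.

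**Figure D2:**
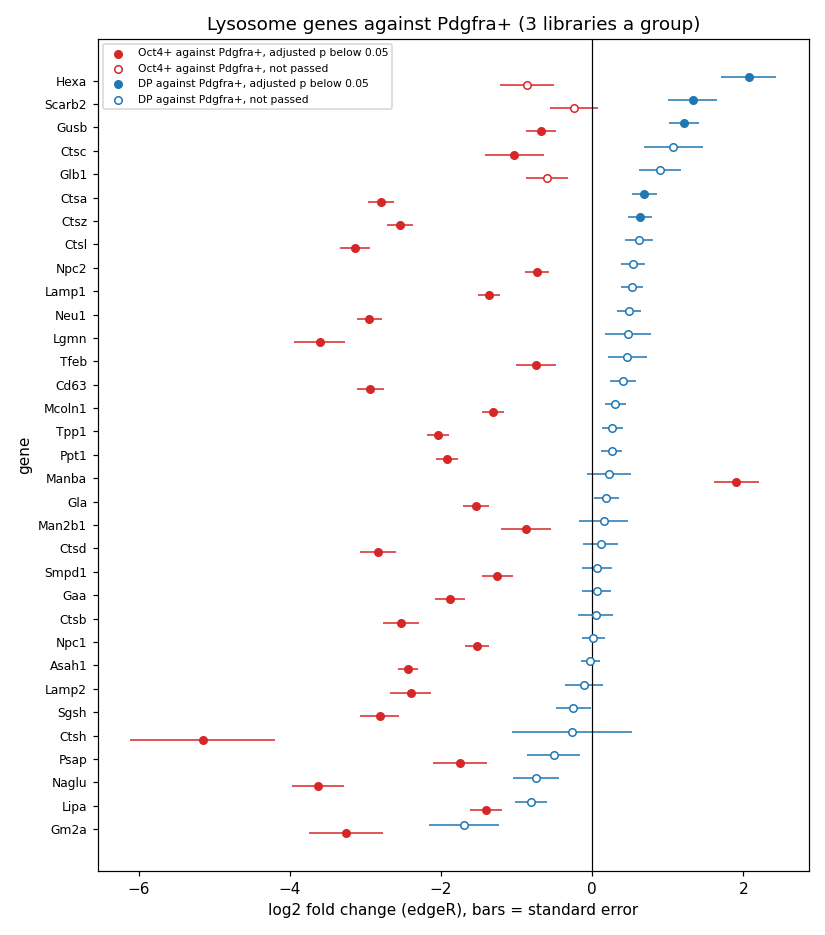
Log2 fold changes of the 33 lysosome genes (rows) for Oct4+ and for DP, each against Pdgfra+, on a shared axis. Bars are 1 SE from edgeR, and filled points have an adjusted p below 0.05. Most points of Oct4+ against Pdgfra+ lie left of 0 around the median of -1.88, while 5 filled points lie right of 0 for DP against Pdgfra+.

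Other genes of the pathway, in lists drawn up by function, gave the following counts, to be read against the 31.5% of all genes that were lower in Oct4+ than in Pdgfra+ and the 31.8% that were higher. Of 25 further hydrolases tested, 19 were lower and 1 higher in Oct4+ than in Pdgfra+, and none passed between DP and Pdgfra+. The acetyltransferase Hgsnat was among those lower (log2 fold change -2.46), and the gene higher was the cysteine protease Ctsk (1.86). Of 14 lysosomal membrane genes 7 were lower, led by the cystine transporter Ctns (-3.02), and Laptm4b was higher (2.65). Of 16 subunits of the proton pump, the V-ATPase, 10 were lower, with Atp6v0a1 at -2.10 and Atp6v0c at -1.35 on the log2 scale.

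Of 10 genes of enzyme sorting 8 were lower in Oct4+, with the mannose 6-phosphate receptor Igf2r at -2.68 and the phosphotransferase subunit Gnptab, which makes the mannose 6-phosphate tag, at -2.31 on the log2 scale. Of 16 genes around TFE factors and mTORC1, 5 were lower, a share like that of all genes, with Tfe3, a relative of Tfeb, at -0.85, and the GTPase Rragd was higher at 3.60. Of 16 autophagy genes 5 were lower, again a share like that of all genes, led by Wipi1 at -2.78, and Gabarapl2 was higher at 1.62. Both cystatins tested, inhibitors of cathepsins, were lower, with Cst3 at -3.52. Of 7 genes of endocytic uptake 6 were lower, with the adaptor Dab2 at -5.08, Cubn at -4.81 and Lrp2 at -4.47.

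Between DP and Pdgfra+, 4 of the 106 genes of these lists were higher in DP (3.77%, against 4.62% of all genes) and 2 lower (1.89%, against 2.26%), shares no larger than those of all genes. Amn (2.02 (adjusted p = 0.0288)), Cubn (1.91 (adjusted p = 0.0463)), Rragd (1.12 (adjusted p = 0.0486)) and the pump subunit Atp6v0d1 (0.74 (adjusted p = 0.0416)) were higher in DP on the log2 scale. Sort1 (-1.12 (adjusted p = 0.0370)), a sorting receptor, and Wipi1 (-1.22 (adjusted p = 0.0383)) were lower. Against Oct4+, where 28.3% of all genes were higher in DP, DP was higher in 19 of the 25 hydrolases, 7 of the 14 membrane genes, 13 of the 16 pump genes, 8 of the 10 sorting genes, 6 of the 16 TFE and mTORC1 genes, 7 of the 16 autophagy genes, both cystatins and 5 of the 7 uptake genes.

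In the single-cell libraries 5324 of 6896 barcodes were kept for -4OHT and 6299 of 7283 for +4OHT (at least 1000 genes and at most 10% mitochondrial UMIs, the unique molecular identifiers that count transcripts). Cells with 3000 CPM or more of Sparc, Col4a1 and Col4a2 together were taken as endoderm. Endoderm cells were divided into Amn/Cubn-positive ones, with 3 or more UMIs of Amn and Cubn together, and Amn/Cubn-low ones. With 1 library per condition no test was possible, so that summed UMIs are given in CPM with the ratio of 2 sums and its exact 95% interval, which covers counting error only. A ratio of 1.5 or more either way in genes with at least 20 CPM in 1 of the sums is called past the fold. The libraries shared 21 barcodes, 17 of them kept.

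The -4OHT library held 740 Amn/Cubn-positive, 640 Amn/Cubn-low and 3944 other cells, and the +4OHT library 170, 5922 and 207. Pou5f1 was at 19.6, 9.40 and 47.9 CPM in these 3 classes without 4OHT and at 3.67, 1.86 and 19.3 CPM with it. Which part of Oct4 the line deletes is not given in the sources used here, so that these 3′ counts need not reflect the deletion itself. Of the other cells 98.8% without 4OHT, but 22.2% with it, had 1000 CPM or more of 9 epiblast genes together. The class therefore held different cells in the 2 libraries. Endoderm cells passed this threshold too, 96.9% of Amn/Cubn-positive and 27.3% of Amn/Cubn-low ones without 4OHT. With 4OHT these shares were 55.3% and 20.5%. The threshold thus did not by itself separate epiblast-like cells from endoderm. Median UMIs per cell were 18609, 12278 and 18781 without 4OHT and 16506, 12562 and 12521 with it. Fibroblast genes summed to 35.3, 129 and 8.24 CPM and to 1.22, 118 and 92.2 CPM in the same order. Without cells at 1000 CPM or more of Col1a1, Col1a2 and Col3a1 together, the numbers of lysosome genes past the fold in the 6 comparisons below were 19, 4, 24, 20, 6 and 17, where they were 19, 4, 24, 20, 7 and 17 with them. Ptprc, a marker of blood cells, was at 0 to 0.0128 CPM. The macrophage genes, Ptprc among them, summed to 1.88, 3.02 and 0.077 CPM without 4OHT and to 3.05, 4.47 and 0.715 CPM with it. Csf1r, from the same list, was at 1.61 to 4.32 CPM in the endoderm classes.

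Lysosome genes made up 1.17% of UMIs in Amn/Cubn-positive, 0.714% in Amn/Cubn-low and 0.169% in other cells of the -4OHT library. In the +4OHT library the values were 0.948%, 0.970% and 0.395%. The share per cell varied around medians of 1.17%, 0.711% and 0.162% without 4OHT and 0.919%, 0.932% and 0.300% with it. Without 4OHT the 5th to 95th percentiles ran from 0.548% to 2.11% in Amn/Cubn-positive and from 0.0987% to 0.269% in other cells, so that these hardly met. With 4OHT the other cells reached from 0.0594% to 1.30%.

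**Figure D3:**
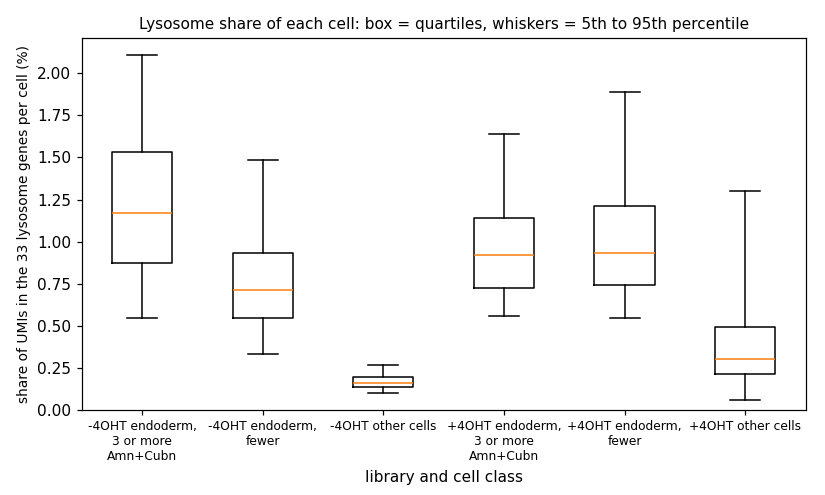
Lysosome genes as a percentage of each cell's UMIs in the 3 cell classes of the -4OHT and +4OHT libraries, drawn as medians with the 5th to 95th percentiles of cells. The positive class of -4OHT has the highest median, 1.17%, and the other cells of -4OHT the lowest, 0.162%.

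Within the endoderm of the -4OHT library, 13 of 31 lysosome genes with enough UMIs were past the fold higher in Amn/Cubn-positive cells, against 9.74% of all genes, and 6 were lower, against 17.2%. The median ratio was 1.34 for the 31 and 0.945 for all genes. Sgsh and Tfeb stayed under the minimum of 20 CPM. The positive cells also had a summed 3313 CPM of epiblast genes against 1362 CPM in the low cells, and more UMIs per cell. The epiblast genes did not move together. Of the 5 with enough UMIs, 1 was past the fold higher in positive cells and 2 lower, with a median ratio of 0.875. With cells thinned to 8035 UMIs, and shallower cells left out so that 638 of the 740 positive and 622 of the 640 low cells remained, 12 genes were higher and 6 lower. With the positive class limited to cells of 3 to 9 Amn and Cubn UMIs, 6 of 29 genes were higher and 5 lower. The share of all genes past the fold was not counted for the thinned cells or the limited class.

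The largest ratio was that of Ctsc, at 169 CPM in positive and 19.7 CPM in low cells, a ratio of 8.58 (interval 7.36 to 10.0). Hexa was at 167 and 22.0 CPM, a ratio of 7.58 (interval 6.56 to 8.81), and Scarb2 at 27.1 and 5.71 CPM, a ratio of 4.75 (interval 3.54 to 6.49). Both therefore stood highest in the Amn/Cubn-positive cells, which paralleled their place in DP. Ctsz had a ratio of 3.00 (interval 2.84 to 3.17), Gusb of 2.56 (interval 2.05 to 3.22), Ctsl of 2.21 (interval 2.17 to 2.24) and Glb1 of 2.01 (interval 1.70 to 2.40). Ratios between 1.51 and 1.85 were those of Npc2, Lamp1, Ctsa, Neu1, Tpp1 and Man2b1.

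The 6 genes lower in positive cells were 4 of the lipid genes with Npc1 and Naglu. Gm2a was at 13.5 CPM in positive and 72.3 CPM in low cells (ratio 0.187 (interval 0.159 to 0.220)), and Psap at 98.8 and 295 CPM (ratio 0.335 (interval 0.314 to 0.357)). Hexa, whose enzyme acts on GM2 ganglioside, and Gm2a, its activator, thus stood on opposite sides. Naglu was at a ratio of 0.353 (interval 0.286 to 0.434), Npc1 of 0.558, Lipa of 0.589 and Smpd1 of 0.592. Ctsb (1.02), Gaa (1.03) and Manba (1.09) had ratios near 1.

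In the +4OHT library, 3 of 28 lysosome genes were higher in Amn/Cubn-positive cells, against 1.84% of all genes, and 1 was lower, against 3.22%. The median ratio was 0.996 for the 28 and 1.01 for all genes. Ctsc was at 24.1 CPM in positive and 14.8 CPM in low cells, a ratio of 1.63 (interval 1.28 to 2.05). Ctsh, at a ratio of 1.55 (interval 1.41 to 1.69), and Glb1, at 1.52 (interval 1.22 to 1.88), were the others higher, and Gm2a the one lower, at 0.563 (interval 0.485 to 0.651). Hexa was at 50.7 and 43.7 CPM, a ratio of 1.16 (interval 0.988 to 1.36). Past the fold in the same direction in both libraries, among 28 genes considered in both, were Ctsc and Glb1 as higher and Gm2a as lower. The positive cells of the 2 libraries were not alike in the genes that chose them, with a median of 21 Amn and Cubn UMIs per cell without 4OHT and 4 with it.

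**Figure D4:**
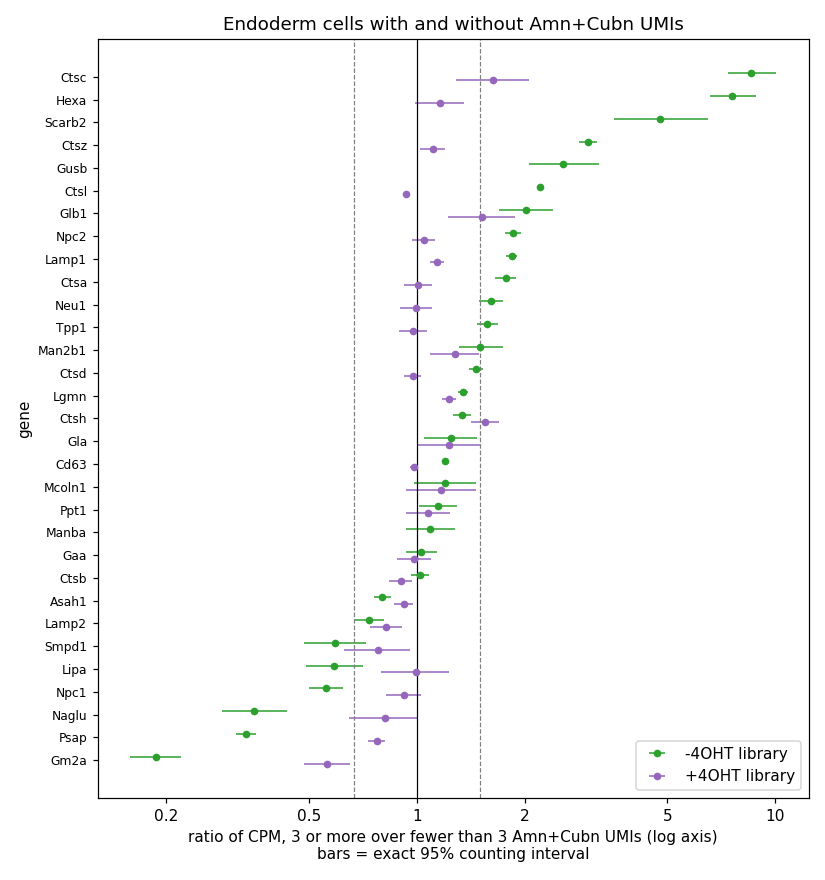
Ratio of CPM in Amn/Cubn-positive over Amn/Cubn-low endoderm for each lysosome gene in the -4OHT and +4OHT libraries, on a log axis with exact 95% counting intervals. The -4OHT points run from 0.187 for Gm2a to 8.58 for Ctsc, and most +4OHT points lie close to 1.

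With cells placed by their Amn and Cubn UMIs (0, 1 to 2, 3 to 9, 10 to 29, and 30 or more, bins chosen after the values were seen), the -4OHT library had 467, 173, 145, 387 and 208 endoderm cells. Hexa was at 21.9, 22.5, 69.9, 171 and 201 CPM from the lowest to the highest bin, and Ctsc at 18.9, 21.7, 79.6, 164 and 211 CPM. Gm2a was at 75.6, 64.0, 24.1, 12.3 and 11.1 CPM and Psap at 310.0, 258, 183, 91.0 and 76.6 CPM in the same order. Hexa and Ctsc thus stood higher in each bin from 3 UMIs up, and Gm2a and Psap lower in each successive bin. In the +4OHT library the bins of 0, 1 to 2 and 3 to 9 UMIs held 5081, 841 and 163 cells. There Hexa was at 43.3, 45.4 and 49.1 CPM and Gm2a at 107, 80.8 and 57.7 CPM. Ctsc was at 14.9, 14.2 and 23.1 CPM and Psap at 542, 457 and 415 CPM. The next bin, of 10 to 29 UMIs, held only 7 cells with 4OHT. Hexa was at 83.9 CPM (interval 44.7 to 144) and Gm2a at 51.7 CPM (interval 22.3 to 102) in these cells. Ctsc was at 45.2 CPM (interval 18.2 to 93.1) and Psap at 271 CPM (interval 195 to 367).

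**Figure D5:**
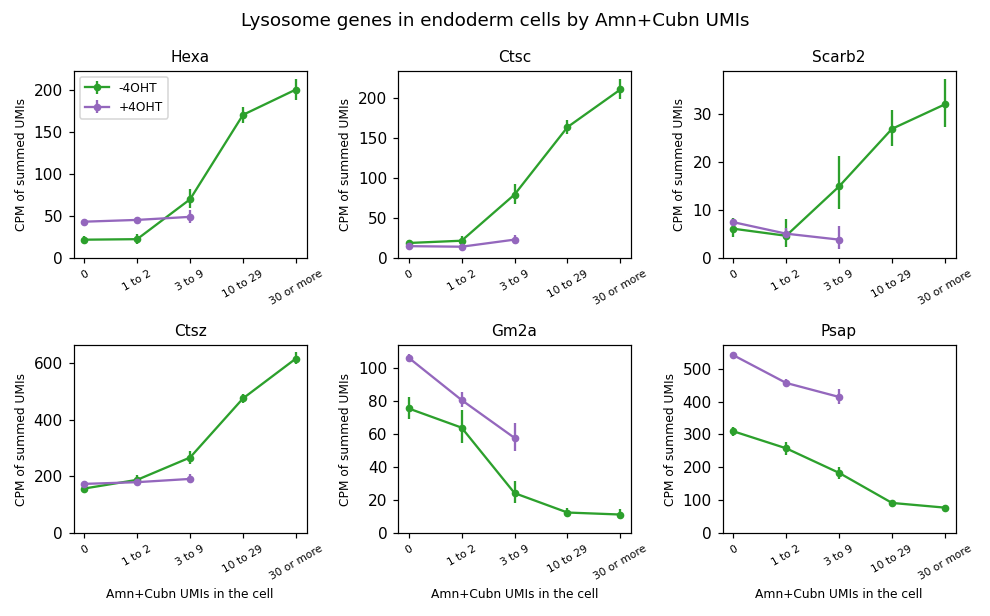
CPM of Hexa, Ctsc, Scarb2, Ctsz, Gm2a and Psap in endoderm cells binned by their Amn and Cubn UMIs, for the -4OHT and +4OHT libraries, with exact 95% counting intervals and only bins of 20 or more cells. In -4OHT Hexa goes from 21.9 to 201 CPM and Gm2a from 75.6 to 11.1 CPM across the bins.

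The bulk and single-cell designs share no samples. All 5 genes higher in DP than in Pdgfra+ in bulk were past the fold higher in the Amn/Cubn-positive cells of -4OHT (100% of the 5, and 38.5% of the 13). For all genes the comparison was limited to the 6426 tested in bulk with at least 20 CPM in 1 of the sums. These held 192 of the 655 genes higher in DP. Among them the overlap was 156 of the 192 higher in DP (81.2%) and 25.1% of the 622 with a higher ratio. Of the 6 lysosome genes with a lower ratio, 4 (66.7%) had a negative log2 fold change in bulk, against 94.8% of such genes among the 6426. Over the 31 lysosome genes the log2 ratio and the bulk log2 fold change correlated at Pearson's r = 0.913 and Spearman's rho = 0.919, and over 6426 genes at 0.806 and 0.828. For the +4OHT ratios the values were 0.618 and 0.596 over 28 genes and 0.464 and 0.459 over 6585 genes. These correlations are across genes, which are not independent replicates.

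Amn/Cubn-low endoderm was set beside the other cells of the same library. Without 4OHT 23 of 28 lysosome genes were higher in endoderm, against 31.0% of all genes, and 1 was lower, against 18.2%. The median ratio was 3.10 for the 28 and 1.08 for all genes. The ratio was 39.7 (interval 35.4 to 44.7) for Ctsh, 22.7 (interval 21.5 to 23.9) for Lgmn, 20.9 (interval 16.6 to 26.4) for Naglu and 11.2 (interval 11.0 to 11.5) for Ctsl, which were also among the genes furthest below Pdgfra+ in the bulk Oct4+ libraries. Manba was at 27.1 CPM in endoderm and 128 CPM in other cells, a ratio of 0.212 (interval 0.186 to 0.241). Of the 43 other cells under both the fibroblast and the epiblast threshold, the lysosome share was 0.413%. It was 0.166% in the 3895 under the fibroblast but over the epiblast threshold.

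With 4OHT 18 of 27 genes were higher in endoderm than in other cells, against 24.7% of all genes, and 2 were lower, against 23.8%. The median ratio was 2.13 for the 27 and 0.966 for all genes. Lgmn (6.52), Ctsh (6.24) and Naglu (5.64) again led. Hexa and Npc2 were lower, at 0.593 (interval 0.515 to 0.686) and 0.584 (interval 0.548 to 0.622). These other cells had 1071 CPM of endoderm genes against 278 CPM without 4OHT.

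The +4OHT library was set against the -4OHT library within each endoderm class, as the level with 4OHT over that without. With 1 library of each, treatment and library cannot be told apart. In Amn/Cubn-low cells 5 of 27 lysosome genes were higher with 4OHT, against 9.78% of all genes, and 2 were lower, against 4.29%. The median ratio was 1.30 for the 27 and 1.07 for all genes. Hexa was at 22.0 CPM without and 43.7 CPM with 4OHT, a ratio of 1.98 (interval 1.72 to 2.30). Psap was at a ratio of 1.79 (interval 1.72 to 1.86), Smpd1 of 1.60 (interval 1.38 to 1.85), Lamp2 of 1.59 (interval 1.48 to 1.71) and Ctsl of 1.51 (interval 1.49 to 1.53). Lower with 4OHT were Manba, at 0.442 (interval 0.384 to 0.510), and Ctsh, at 0.548 (interval 0.520 to 0.578). With ratios divided by that of the median gene 2 stayed higher and 2 lower, and the share of all genes was not counted after this division.

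In Amn/Cubn-positive cells 8 of 31 genes were higher with 4OHT, a share like the 25.6% of all genes. Another 9 were lower, against 9.74% of all genes. The median ratio was 0.992 for the 31 and 1.13 for all genes. After division by the median gene 6 were higher and 14 lower, and the share of all genes past the fold was not counted after this division. Gm2a was at 13.5 CPM without and 57.4 CPM with 4OHT, a ratio of 4.25 (interval 3.46 to 5.21), and Psap at a ratio of 4.13 (interval 3.83 to 4.45). Naglu (2.62), Npc1 (2.42), Smpd1 (2.10), Lamp2 (1.77), Asah1 (1.68) and Lipa (1.68) were the others higher.

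Ctsc was at 169 CPM without and 24.1 CPM with 4OHT, a ratio of 0.143 (interval 0.113 to 0.179), and Scarb2 at 27.1 and 4.28 CPM, a ratio of 0.158 (interval 0.0855 to 0.268). The others lower were Hexa (0.303), Manba (0.352), Ctsz (0.389), Gusb (0.421), Npc2 (0.581), Ctsh (0.635) and Ctsl (0.637). The positive classes of the 2 libraries differ in how many Amn and Cubn UMIs their cells hold. With the class limited to cells of 3 to 9 such UMIs, 9 of 30 genes were higher with 4OHT and 4 lower. Hexa was then at 0.701 and Ctsl at 0.992. The share of all genes past the fold was not counted for this limited class. Its median ratio over all genes was 1.11.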

How the data were processed

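Bulk values are raw gene counts as deposited by the authors, from a directional kit (NEBNext Ultra II) read from one end. How reads were aligned and counted, on which annotation and with or without strand, is not given in the sources used here. Exons of 11 of the 33 lysosome genes overlap another gene in GENCODE M21, 9 of them a gene on the opposite strand and 3 one on the same strand (Ctsd, Ctsl and Glb1), so that reads may have been split or merged there. The last 35 lines, blank in gene and count alike, were dropped. Single-cell values are UMI counts by gene and barcode, which the authors made with Cell Ranger on an mm10 reference.

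Groups came from the sample labels. Bulk counts were analysed with edgeR 4.0.16 in R 4.3.3 (filterByExpr, TMM, glmQLFit on all 9 libraries with group as the only term, glmQLFTest for 3 contrasts, Benjamini-Hochberg adjustment over 14185 genes, threshold 0.05, and a second rule with an absolute log2 fold change above 1.5). The study used DESeq2, which was run as an alternative (1.42.0). The study calls the bulk libraries biological replicates. What separated them (culture, passage or sort) is not given in the sources used here, and p-values measure the spread between these libraries. All pairs of replicates differed beyond sampling noise (chi-square of 16.7 to 36.6 per degree of freedom). Deviations from the group mean correlated between DP and Pdgfra+ libraries of the same number at 0.271, 0.477 and 0.321 across genes, all over 0.1, and the numbers were taken as pairs for these groups. The pairing is read from the counts. Oct4+ and Pdgfra+ gave 0.0383, -0.00412 and -0.0465, and DP and Oct4+ gave 0.0222, -0.0728 and 0.152, so these were not taken as pairs.

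UMIs were summed per library and cell class, scaled to CPM and compared as ratios with exact 95% intervals, with no test. No doublet caller was run, and cells above 2.5 times the median UMI count were left out in an alternative. Loci and exon lengths are from GENCODE M21 (GRCm38), promoters from RefSeq. The scripts were tested on simulated counts with known changes. The lysosome genes, the other gene lists, the cell classes and the rules were chosen with earlier results of these data known. By rule, every lysosome gene is named, and values in every library are given for those passing between DP and Pdgfra+, for the 6 furthest each way in the other contrasts, and for Lamp1, Ctsb, Ctsd, Ctsl and Tfeb. Single-cell values are given for genes past the fold in both libraries or with 4OHT, and up to 3 genes per direction for each other list. Gm2a, Psap, Hexa and others with values beyond this rule were named after their values were seen.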

Additional observations from a re-analysis of the deposited data

Results flagged for a closer look

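2 lysosome genes were past the fold in opposite directions with 4OHT in the 2 endoderm classes. Ctsl was at a ratio of 1.51 (+4OHT over -4OHT) in Amn/Cubn-low cells and 0.637 in Amn/Cubn-positive cells. Hexa was at 1.98 in Amn/Cubn-low cells and 0.303 in Amn/Cubn-positive cells. The difference between the classes was not tested, since each condition had 1 library. With the positive class limited to 3 to 9 Amn and Cubn UMIs the ratios were 0.992 for Ctsl and 0.701 for Hexa.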

How the results depend on the processing

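For DP against Pdgfra+ the 5 lysosome genes higher became 10 under DESeq2, 10 with no filter on low counts, 13 with a replicate block fitted to the 6 DP and Pdgfra+ libraries and 1 with the fold threshold, and ran from 0 to 7 when 1 library was left out (0 without Pdgfra+ replicate 3, 1 without Pdgfra+ replicate 2 or DP replicate 3, 2 without DP replicate 2). The 0 lower became 2 under DESeq2, 2 with no filter, 1 with the replicate block on all 9 libraries and 3 on those 6, and ran from 0 to 2 with 1 library left out. With the block on those 6, 10.4% of all genes were higher and 9.86% lower, against 4.62% and 2.26% in the main fit. The share of all genes called was not counted for the other refits, so that their counts cannot be set against it. Adjusted p over the alternatives ran from 2.41e-07 to 0.0690 for Hexa, 3.88e-06 to 0.0690 for Gusb, 0.000174 to 0.135 for Scarb2, 0.00230 to 0.139 for Ctsa and 0.00455 to 0.155 for Ctsz. Uncalled log2 fold changes that turned sign were those of Ctsb without Pdgfra+ replicate 2 (-0.04), without Pdgfra+ replicate 3 (-0.01) and without DP replicate 1 (-0.14), and of Ctsd without DP replicate 1 (-0.14). With 1 library left out they ran from -0.14 to 0.21 for Ctsb and from -0.14 to 0.29 for Ctsd.

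With 1 library left out, genes lower in Oct4+ than in Pdgfra+ ran from 25 to 30, with 1 higher throughout, and genes higher in DP than in Oct4+ from 29 to 32, with 1 lower throughout. Under DESeq2 the median of all genes for Oct4+ against Pdgfra+ shifted to 0.37 on the log2 scale, and with no filter to 0.27, with 29 and 31 lysosome genes lower. In the single-cell sums, genes past the fold with 4OHT in Amn/Cubn-low cells went from 7 to 4 after division by the median gene. Those past the fold between positive and low cells with 4OHT went from 4 to 7 with a minimum of 5 Amn and Cubn UMIs. With the positive class limited to 3 to 9 such UMIs, an alternative chosen after seeing the data, the count went from 19 to 11 in the -4OHT split and from 17 to 13, 9 of them higher, for 4OHT in positive cells. The share of all genes past the fold was not counted for any of the single-cell alternatives, so that their counts cannot be set against it. The causes were not tested. Bulk had 3 libraries per group and the single cells 1 per condition, which limits the precision.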
